A study of Mus musculus with 8 samples.

Results

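Mouse embryonic stem (ES) cells were examined here for genes that make serine, proline and asparagine from intermediates of sugar and glutamate metabolism. The set named 10 genes, which encode the serine enzymes Phgdh, Psat1 and Psph, the mitochondrial folate enzymes Shmt2 and Mthfd2, the proline enzymes Aldh18a1 and Pycr1, the mitochondrial phosphoenolpyruvate carboxykinase Pck2, the asparagine synthetase Asns and the secreted glycoprotein stanniocalcin 2 (Stc2). A gene was measured where a probe set of the array lists it as its only gene, and among several the brightest over the 8 arrays led the gene. This gave 8 of the 10 genes, among 17098 genes on the array. The probe sets listed for Mthfd2 also list another gene, and none lists Pycr1, so both were not analysed here. The genes were chosen by their log2 differences between cisplatin and control in earlier results of these data. Those differences, and any call made on them, are therefore a description here, without p-values.

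One group was treated for 8 h with 2.5 µM cisplatin, a platinum drug that crosslinks DNA, and the other group received dimethyl sulfoxide (DMSO), its solvent. All 8 samples were HPRT deficient C57BL/6 ES cells of passages 19 to 22, kept on feeder cells and then on gelatin. There were 4 arrays per group, numbered as replicates 3 to 6 in both, and the study compared treated with untreated cells. The labels do not say whether replicates came from separate cultures, so the standard errors may hold technical spread only, and the number of arrays limits the precision.

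Serine is made from the glycolytic intermediate 3-phosphoglycerate in a short chain of reactions, and serine hydroxymethyltransferase then passes a carbon unit from serine to folate, which feeds nucleotide synthesis. Proline is built from glutamate through pyrroline-5-carboxylate, and asparagine from aspartate with glutamine as the nitrogen donor. In mammalian cells short of amino acids the transcription factor ATF4 raises many genes of these routes, often through a composite C/EBP-ATF element in their promoters. ES cells divide quickly and draw heavily on folate-bound carbon units for nucleotides.

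The promoters of the genes were read to show which of them hold that element. Windows from 250 bases before to 50 bases after the annotated start were taken from RefSeq (GRCm38.p6), which held all 10 genes. The core letters TGATGNAA were searched on both strands, as were those of the E-box CACGTG, which MYC proteins bind. The C/EBP-ATF core lay in the windows of 3 of the 10 genes, Pycr1, Pck2 and Asns, against 3.27% of the 13605 tested genes with a window. The E-box lay in 1, that of Aldh18a1, against 10.2% of those genes, so its share in the set was that of genes at large. These are letter matches in this window and not measured binding sites. Of the 15 windows of a list of ATF4 and its other targets, 6 held the core, as did 4 of 11 of aminoacyl-tRNA synthetase genes, but none of the 11 windows of further serine and folate genes. Asns and Pck2 are shown because both hold the core, with Pck2 lower after cisplatin and Asns not called, and Aldh18a1 because it was lower and holds the E-box without the core. Their windows are chr6:7693160-7693459, minus strand, chr14:55540016-55540315, plus strand, and chr19:40588414-40588713, minus strand. Capitals mark the C/EBP-ATF core in Asns and Pck2 and the E-box in Aldh18a1.
Asns: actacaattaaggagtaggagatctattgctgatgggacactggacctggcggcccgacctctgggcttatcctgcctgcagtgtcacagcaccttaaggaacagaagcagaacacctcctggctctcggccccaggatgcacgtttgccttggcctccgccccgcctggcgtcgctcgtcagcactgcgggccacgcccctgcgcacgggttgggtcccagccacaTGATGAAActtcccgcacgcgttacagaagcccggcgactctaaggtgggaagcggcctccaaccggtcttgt
Pck2: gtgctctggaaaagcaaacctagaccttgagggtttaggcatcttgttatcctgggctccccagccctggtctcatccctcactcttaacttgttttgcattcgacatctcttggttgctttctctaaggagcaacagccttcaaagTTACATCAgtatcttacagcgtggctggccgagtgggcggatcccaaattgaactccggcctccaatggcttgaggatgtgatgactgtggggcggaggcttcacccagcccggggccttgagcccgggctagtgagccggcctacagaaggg
Aldh18a1: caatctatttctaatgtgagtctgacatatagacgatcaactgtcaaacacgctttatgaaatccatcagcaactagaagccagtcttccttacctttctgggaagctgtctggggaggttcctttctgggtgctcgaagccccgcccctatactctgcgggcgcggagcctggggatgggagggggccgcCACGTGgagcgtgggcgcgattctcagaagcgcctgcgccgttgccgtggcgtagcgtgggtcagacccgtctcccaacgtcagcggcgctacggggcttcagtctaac
The core runs from 23 to 16 bases before the annotated start in Asns, reading TGATGAAA. In Pck2 it lies on the opposite strand, from 103 to 96 bases before the start, so that the printed strand reads TTACATCA. The core of Pycr1 stands at the same distance as that of Pck2 and reads TGATGCAA.

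The cell type was checked against its markers. Of 8 ES cell markers, 7 were measured and all lay far above the array's background, which probes with 24 G or C bases put at 3.10 on the log2 scale. Their mean log2 level was 11.2 to 11.3 on the cisplatin arrays and 11.4 to 11.5 on the control arrays, and Nanog, Zfp42, Esrrb and Utf1 were lower with cisplatin. Of 10 fibroblast markers, which feeder cells would carry, Col1a2, Postn, Lum, Dcn and Pdgfrb were below background in both groups. The other 5 were above it, with Vim at 10.8 with cisplatin and 10.9 in the controls, and Fn1 at 9.89 and 10.2. Thy1 was at 5.23 and 4.62, Col1a1 at 3.37 and 3.46, and Col3a1 at 3.49 and 3.55. The mean over the fibroblast list was 4.44 to 4.76 with cisplatin and 4.53 to 4.69 in the controls, with Thy1 higher and Fn1 lower. The part of feeder cells or of a change in cell state in the results below was not tested. Hprt itself had a log2 level of 4.84 ± 0.16 with cisplatin and 4.60 ± 0.37 in the controls (SD, n = 4 each), and since the labels do not say which stretch of the gene is altered, this checks nothing. Arrays of 1 group correlated at 0.997 to 0.998 over all genes.

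Cisplatin-treated cells carried less Aldh18a1, Pck2 and Stc2 mRNA, while the serine enzymes, Shmt2 and Asns stayed close to the control level. Across all genes, limma with Benjamini-Hochberg adjustment called 19.3% at an adjusted p under 0.05, with 11.6% higher and 7.69% lower. Of the 8 genes, 3 were called lower, none higher and 5 were not called. Nothing is read from this count, because the genes were chosen knowing the contrast. The median log2 difference was -0.12 over the 8 genes and 0.01 over all genes. In bulk RNA, fewer cells of a kind and less RNA per cell cannot be told apart.

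**Figure D1:**
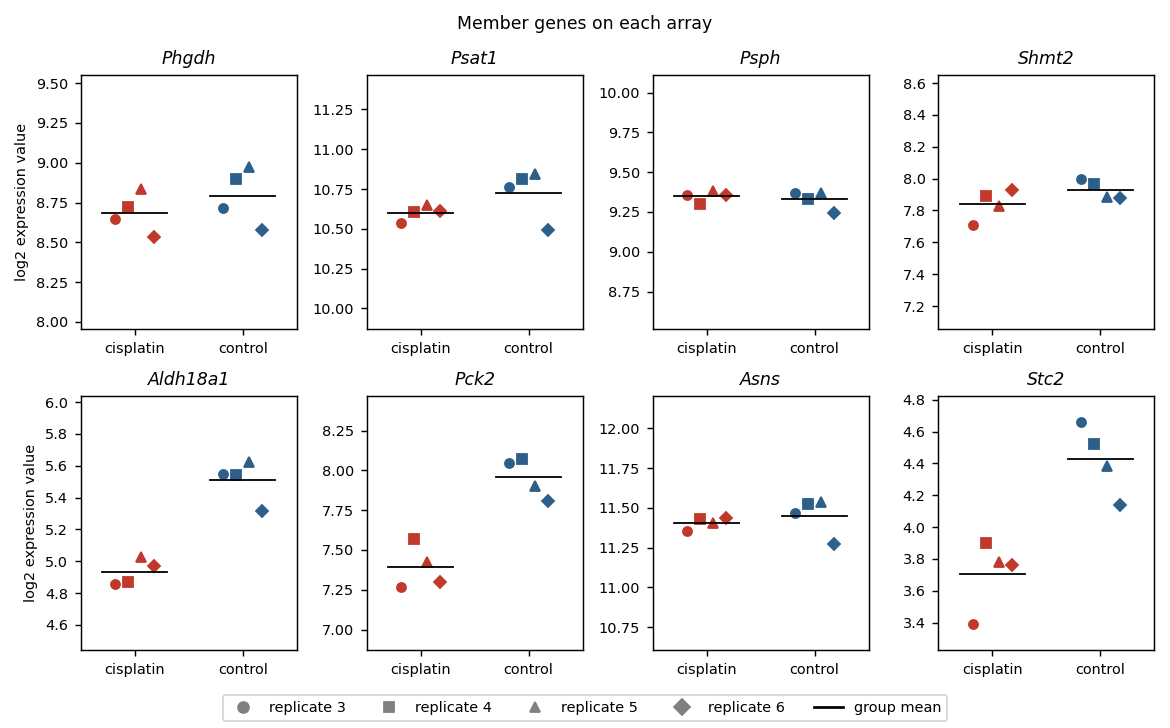
Log2 expression value of each of the 8 genes on every array, with cisplatin left and control right, 1 symbol shape per replicate number and a line at the group mean; every panel spans the same log2 range, at its own level. For Aldh18a1, Pck2 and Stc2 the 4 cisplatin arrays lie below the 4 control arrays, and for the other 5 genes the groups overlap.

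The first enzyme of serine synthesis, Phgdh, oxidises 3-phosphoglycerate. Its log2 values were 8.65, 8.72, 8.84 and 8.54 on the cisplatin arrays of replicates 3 to 6, against 8.72, 8.90, 8.97 and 8.58 on the control arrays of the same numbers. The groups overlapped, and the lowest array in each was replicate 6. The difference was -0.11 ± 0.10 (log2, SE, 4 arrays against 4), with a 95% interval from -0.32 to 0.11. On the linear scale the cisplatin level was thus 93.0% of control, with an interval from 80.1% to 108.0%.

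Psat1, the aminotransferase of the second step, gave 10.54, 10.61, 10.65 and 10.61 with cisplatin and 10.76, 10.81, 10.84 and 10.50 in the controls. Control replicate 6 alone lay below the cisplatin arrays, and the other controls lay above all of them. The difference was -0.13 ± 0.08 (log2, SE), or 91.6% of control with an interval from 81.2% to 103.5%. Psph, the phosphatase of the last step, had 9.36, 9.30, 9.38 and 9.35 with cisplatin, against 9.37, 9.33, 9.37 and 9.24 in the controls. Its groups overlapped fully, and at 0.02 ± 0.05 its interval ran from -0.10 to 0.14.

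Shmt2 moves the carbon unit from serine to folate in mitochondria. Its log2 values were 7.71, 7.89, 7.83 and 7.93 with cisplatin and 8.00, 7.97, 7.88 and 7.88 in the controls. The groups overlapped, with cisplatin replicate 3 lowest of all. The difference was -0.09 ± 0.06 (log2, SE), which is 93.8% of control with an interval from 85.1% to 103.4%. Among Phgdh, Psat1, Psph and Shmt2, the lowest bound of an interval was the 80.1% of Phgdh. The fitted levels of Aldh18a1 and Pck2 given next are lower than that. The genes were chosen by these differences, and whether they differ from each other was not tested.

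Aldh18a1 encodes the enzyme that commits glutamate to proline and ornithine. It had log2 values of 4.86, 4.87, 5.03 and 4.97 with cisplatin, against 5.55, 5.54, 5.62 and 5.32 in the controls. Every cisplatin array was below every control array, as for 10.1% of all genes. Aldh18a1 fell by 0.58 ± 0.08 on the log2 scale (SE, 4 arrays against 4), to 67.0% of control with an interval from 59.6% to 75.3%.

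Pck2 makes phosphoenolpyruvate from oxaloacetate in mitochondria, from which 3-phosphoglycerate and then serine can be formed. Its values were 7.26, 7.57, 7.42 and 7.30 with cisplatin, against 8.05, 8.07, 7.90 and 7.81 in the controls. The groups did not overlap here either. Pck2 fell by 0.57 ± 0.09 on the log2 scale, to 67.4% of control with an interval from 59.1% to 77.0%.

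Asns, which makes asparagine and is a much studied ATF4 target, gave 11.35, 11.43, 11.41 and 11.44 with cisplatin and 11.47, 11.52, 11.54 and 11.27 in the controls. The cisplatin arrays lay close together, and control replicate 6 was the lowest of all 8 arrays. The difference was -0.04 ± 0.07 (log2, SE), or 97.1% of control with an interval from 87.5% to 107.7%. Stc2, a secreted glycoprotein that rises under stress of the endoplasmic reticulum, gave 3.39, 3.90, 3.78 and 3.76 with cisplatin, against 4.66, 4.52, 4.38 and 4.14 in the controls. The groups did not overlap, and the cisplatin arrays came within 1 log2 unit of the background of 3.10, where differences are understated. Stc2 fell by 0.72 ± 0.13 on the log2 scale, to 60.8% of control with an interval from 49.6% to 74.4%.

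Without control replicate 6 the count was 4 of 8, since Psat1 was then called at -0.20, and over all genes 7.29% were then called lower. When each array was centred on its median, which lowers every change by 0.13, Psat1 at -0.26 and Shmt2 at -0.22 were called lower as well, making 5 of 8, and over all genes the share called lower became 23%.

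The 8 genes are read by 15 probe sets, and the further ones of 5 genes were compared with the leading one. Among all 28898 probe sets with 1 gene, 7.69% were called lower. The second probe set of Pck2 was also called lower, at -0.42 ± 0.12 (log2, SE), with a log2 level of 3.99 ± 0.23 with cisplatin and 4.41 ± 0.18 in the controls (SD, n = 4). The second of Aldh18a1 differed by -0.26 ± 0.11 and was not called. Those of Stc2 differed by -0.23 ± 0.11 and -0.15 ± 0.12, neither of them called, and averaging its 3 probe sets gave -0.37 for the gene, which was still called. The 2 further probe sets of Shmt2 stood at -0.02 ± 0.06 and -0.13 ± 0.07, and the second of Phgdh at -0.10 ± 0.09. Each further set but the second of Pck2 and those of Stc2 is of a kind that can bind other transcripts as well. The leading set of Phgdh is of that kind too. All the probe sets of a gene thus had the same sign, while the sizes for Aldh18a1 and Stc2 depended on the probe set.

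**Figure D2:**
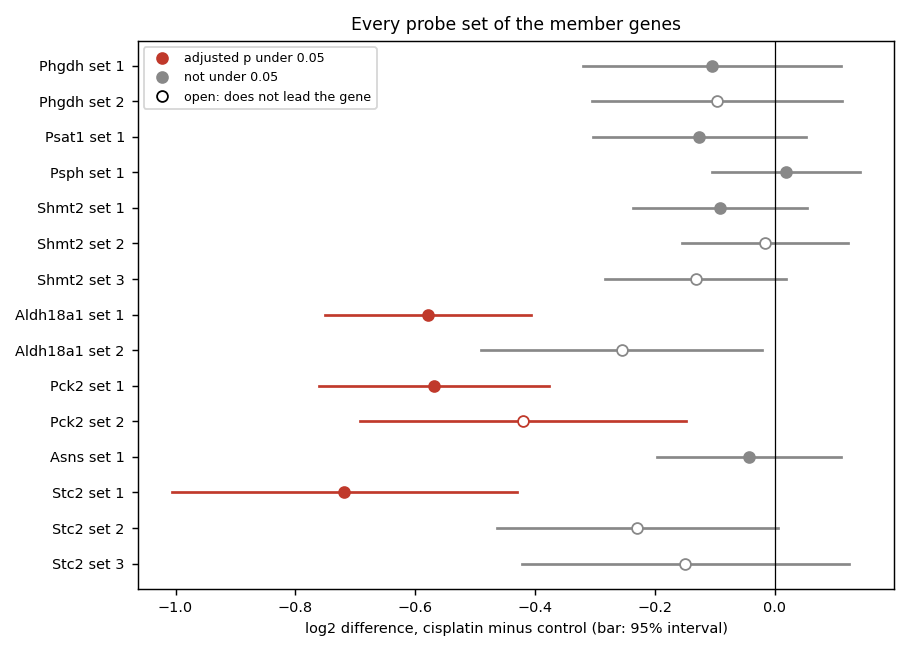
Log2 difference between cisplatin and control for each of the 15 probe sets of the 8 genes, with 95% intervals; filled symbols mark the probe set that leads its gene and red those called at an adjusted p under 0.05. Called are the leading sets of Aldh18a1, Pck2 and Stc2 and the second set of Pck2.

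Within each group, the 8 genes tended to be high or low on the same arrays. Control replicate 6 was the lowest of the 4 control arrays for 8 of the 8 genes, and over all genes it was the lowest for 28.8%. Its deviations from the control mean ran from -0.05 for Shmt2 to -0.29 for Stc2, while its median deviation over all genes was 0.00. Cisplatin replicate 3 was the lowest cisplatin array for 6 of the 8 genes, against 28.3% of all genes. The deviations from the group means correlated between genes with a median Pearson r of 0.59 over 28 pairs, each across 8 arrays. The pairs ran from -0.09 for Phgdh with Shmt2 to 0.98 for Psat1 with Asns, and 27 of the 28 were above 0. These pairs share their arrays, among them control replicate 6 with all 8 genes low, so they are a description of the same 8 samples. How far they rest on that array was not tested, and no such correlations were computed over all genes.

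**Figure D3:**
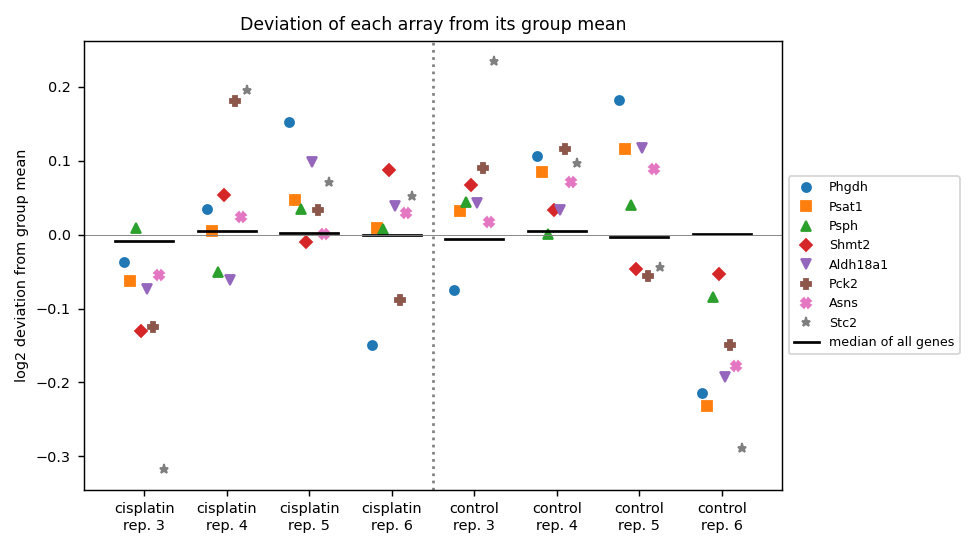
Log2 deviation of each gene on each array from the mean of its group, with 1 symbol per gene and a black bar at the median over all genes. All 8 genes lie below 0 on control replicate 6, while the median over all genes stays near 0 on every array.

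The low position on that array was not seen in every related list. Of 16 aminoacyl-tRNA synthetase genes, which charge transfer RNA with amino acids, 10 were lowest on control replicate 6 among the controls. Of 46 further genes of the same routes 13 were, or 28.3%, near the 28.8% of all genes. They included 5 of 9 in the asparagine and aspartate list and none of 12 in the proline, ornithine and glutamate list. Nothing is read from these small lists. Of 16 genes in the list of ATF4 and its other targets 7 were, though for Atf4 itself that array, at 10.39, lay between the other controls. Of 10 amino acid transporter genes 3 were, or 30%, again near the share of all genes. The 5 genes outside the set whose levels followed the mean standardised level of the 8 genes most closely over the 8 arrays were Efcab2, Ica1, H2aw, Galnt7 and Mipol1, with Pearson r from 0.96 to 0.99. That likeness takes in the difference between the groups, so no test of it is given for them.

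The further genes of the same routes were taken from lists of 65 genes, of which 46 were measured. Like the set, all the gene lists used here were chosen with earlier results of these data known. Their called genes are named by smallest p, so the adjusted p-values printed for them are a description and no support. Of these, 13 were higher with cisplatin and 2 lower, or 28.3% and 4.35%, against 11.6% and 7.69% of all genes, and the median log2 difference was 0.07. Centred arrays gave 7 higher and 6 lower, or 15.2% and 13%, with a median of -0.056. Over all genes the shares were then 6.36% and 23%, with a median of -0.12. Without dim genes 31% of 42 route genes were higher and 4.76% lower, against 19.3% and 12.7% of all genes. The counts thus depend on the scaling, and the shares of all genes on the dim genes. Under each setting the route genes were higher more often, and lower less often, than all genes. Nothing is read from this, because the lists were chosen with earlier results known.

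In serine and folate metabolism, 4 of 14 genes were higher, 1 was lower and 9 were not called, with a median of 0.05. Aldh1l1, the cytosolic enzyme that oxidises formyl-tetrahydrofolate, had a log2 level of 5.26 ± 0.34 with cisplatin and 3.84 ± 0.07 in the controls (SD, n = 4). It rose by 1.42 ± 0.14 (log2, SE; limma adjusted p = 0.000138) in the brighter of its 2 probe sets. Averaging the 2 gave 0.63, which was called, but the other probe set did not share the rise. Cbs, which joins serine to homocysteine, rose by 0.73 ± 0.11 (limma adjusted p = 0.00121). Mtfmt, which formylates the mitochondrial initiator transfer RNA, rose by 0.35 ± 0.08 and the serine racemase Srr, below background in the controls at 2.96, by 0.43 ± 0.11. Mthfd1l, the mitochondrial enzyme that releases formate for the cytosol, fell by 0.33 ± 0.07 on the log2 scale (limma adjusted p = 0.0106). The cytosolic paralog of Shmt2, Shmt1, was at -0.06 ± 0.07 with an interval from -0.22 to 0.10. The Mthfd2 paralog Mthfd2l was at -0.01 ± 0.11, with a level of 3.44 in cisplatin cells and 3.45 in control cells. The call of Srr was lost without cisplatin replicate 4 or 6 (limma adjusted p = 0.0507 and 0.0550) and after centring (0.0610), that of Mtfmt after centring (0.0861).

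Of the 3 measured genes of glycine and threonine metabolism none was called, as Gldc, the decarboxylase of the glycine cleavage system, was at -0.13 ± 0.06 (limma adjusted p = 0.158). The list of proline, ornithine and glutamate genes had 3 of 12 higher, none lower and 9 not called, with a median of 0.11. Aldh4a1, which oxidises pyrroline-5-carboxylate back to glutamate, rose by 0.49 ± 0.07 (limma adjusted p = 0.00102), opposite in direction to Aldh18a1. Its log2 level was 5.39 ± 0.09 with cisplatin and 4.90 ± 0.11 in the controls (SD, n = 4). Oat, which links ornithine to the same intermediate, rose by 0.25 ± 0.05 (limma adjusted p = 0.00953), though not after centring (0.143). P4ha2, a subunit gene of the prolyl hydroxylase that modifies collagen, rose by 0.60 ± 0.15 (limma adjusted p = 0.0184). Its call was lost without cisplatin replicate 4 or 5 (limma adjusted p = 0.0508 and 0.0558). The Pycr1 paralog Pycrl was at 0.14 ± 0.08, with an interval from -0.04 to 0.32.

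The list for asparagine and aspartate held 9 genes, among them the alanine aminotransferases Gpt and Gpt2. Of these 9, 4 were higher, Gpt among them, 1 was lower, Gpt2, and 4 were not called, with a median of 0.20. Gpt2, the mitochondrial alanine aminotransferase, had a log2 level of 7.59 ± 0.06 with cisplatin and 8.03 ± 0.17 in the controls (SD, n = 4). It fell by 0.44 ± 0.08 on the log2 scale (limma adjusted p = 0.00479). Adssl1, an adenylosuccinate synthase that uses aspartate, rose by 0.77 ± 0.14 and lay near background in the controls at 3.18. Ass1, the argininosuccinate synthase, rose by 0.24 ± 0.06 (limma adjusted p = 0.0152), though not after centring (0.184) or by its most variable probe set (0.289). Leaving out cisplatin replicate 4, cisplatin replicate 5, control replicate 3 or control replicate 4 left 2 of the 4 called higher. The cytosolic alanine aminotransferase Gpt and the asparaginase Asrgl1 passed narrowly, at 0.29 ± 0.09 and 0.34 ± 0.10 (limma adjusted p = 0.0419 and 0.0438). Gpt lost its call when any array outside replicate 6 was left out (limma adjusted p up to 0.108). Asrgl1 lost it when any array other than cisplatin replicate 3 and control replicate 5 was left out (limma adjusted p up to 0.113).

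In the list around phosphoenolpyruvate and 3-phosphoglycerate, 2 of 7 genes were higher, 5 were not called, and the median was 0.03. Fbp1, a phosphatase of gluconeogenesis, had a log2 level of 4.77 ± 0.10 with cisplatin and 3.67 ± 0.19 in the controls (SD, n = 4) and rose by 1.10 ± 0.10 (limma adjusted p = 6.9e-05). Pcx, the pyruvate carboxylase that makes oxaloacetate, rose by 0.33 ± 0.06 (limma adjusted p = 0.0033), opposite in direction to Pck2, which uses it. The cytosolic paralog Pck1 was below background, at 2.54 with cisplatin and 2.55 in the controls. Stc1, the paralog of Stc2, was near background at 3.17 with cisplatin and 3.22 in the controls and was not called.

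**Figure D4:**
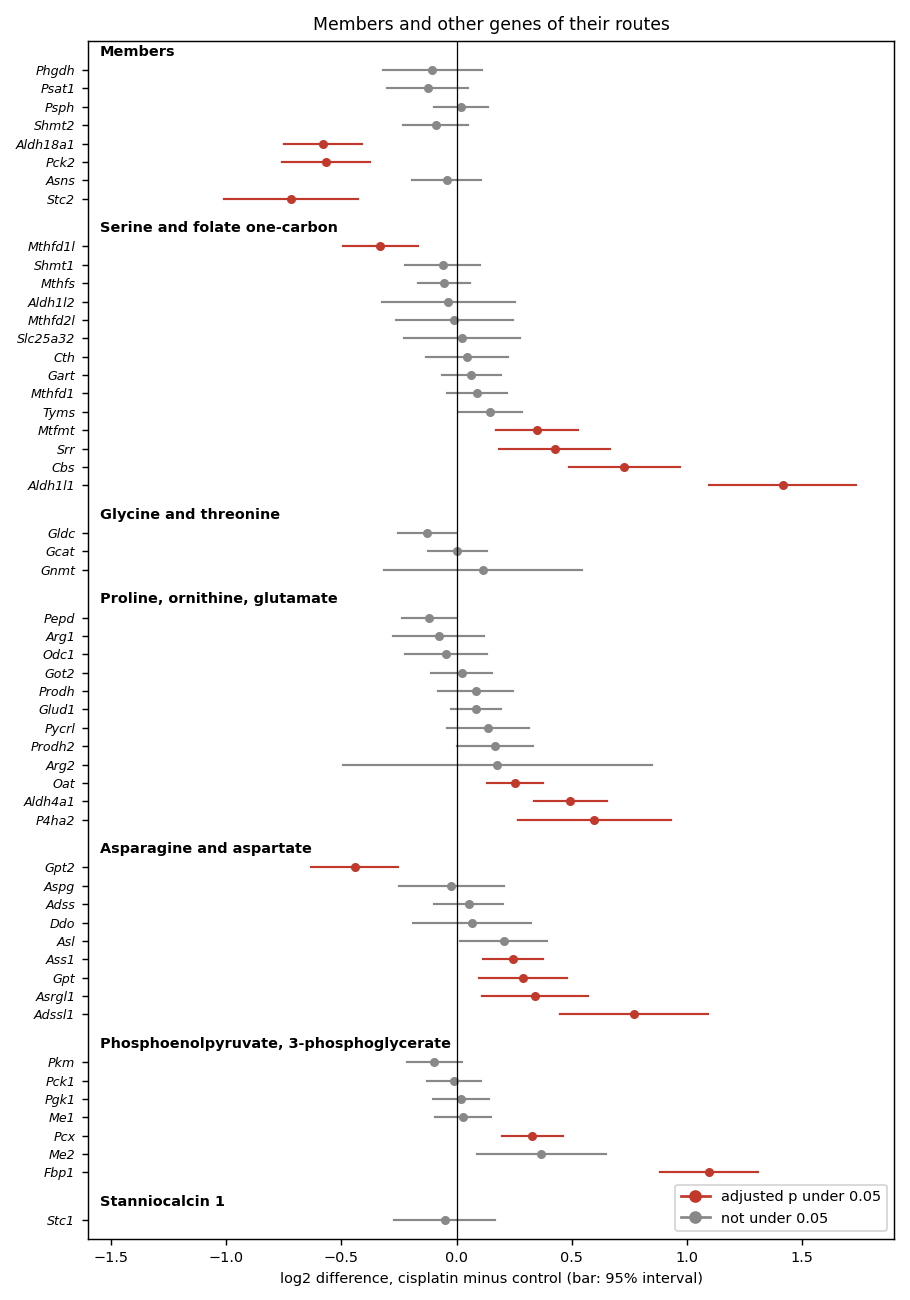
Log2 difference between cisplatin and control, with 95% intervals, for the 8 genes of the set (top) and the 46 further genes of their routes, sorted within each list; red marks an adjusted p under 0.05. Aldh18a1, Pck2 and Stc2 lie left of 0 in the set, and 13 of the 46 further genes lie right of 0 in red.

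Atf4, the transcription factor named above, had log2 values of 9.66, 9.44, 9.33 and 9.53 with cisplatin, against 10.50, 10.36, 10.34 and 10.39 in the controls. The groups lay apart, and Atf4 fell by 0.91 ± 0.08 on the log2 scale in the brighter of its 2 probe sets (limma adjusted p = 5.78e-05). Averaging the 2 gave a fall of 0.50, which was called, but the other probe set fell far less. The array reads its mRNA and not its protein, whose amount is set largely by translation. Among 16 genes that held Atf4 and known ATF4 targets outside the set, 3 were higher and 3 lower, with a median of -0.05. Of 10 transporter genes 6 were lower and 4 not called (median -0.30), and the synthetase list 3 of 16 lower and 1 higher, with a median of -0.09. Over all genes 11.6% were higher and 7.69% lower. Centred arrays gave 9 synthetases lower and none higher, 8 transporters lower and 5 genes of the ATF4 list lower. Centring also moved the shares over all genes, to 6.36% higher and 23% lower. The count of 6 transporters held with any 1 array left out, whereas 2 to 5 of the ATF4 list and 2 to 4 of the synthetases were then lower, with the most in both lists without control replicate 6. No synthetase was called higher with any 1 array left out. Whether the set differs from these lists was not tested.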

How the data were processed

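Per the submitters' processing notes, the authors made the deposited log2 expression values with RMA (which does background correction, normalization between arrays and a summary per probe set) and also used limma, without naming versions. RMA's normalization rests on most transcripts holding steady between arrays. The table holds 45141 probe sets in 8 columns, with medians from 3.35 to 3.38. Platform annotation gives 28898 probe sets 1 gene, 551 several and 15588, besides 104 controls, none; the last kinds were left out. Symbols were updated through Entrez identifiers in RefSeq (GRCm38.p6) for 16937 of 17098 genes.

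Groups come from the sample titles. The comparison used limma 3.58.1 (lmFit and eBayes with a group term alone) under R 4.3.3, two-sided, with Benjamini-Hochberg adjustment over 17098 genes, a threshold of 0.05 and no filter on dim genes. Intervals are 95% and use the moderated error. The test was tested on simulated data. The members and gene lists were chosen with earlier results of these data known. Named were the members, up to 6 called genes of each list by smallest p, the nearest paralogs, Atf4, Hprt and the 5 genes most like the members; 50 genes in all, of which called genes of the last 3 lists are given as counts. Alternatives covered probe set choice, dim genes, normalization, the test, a replicate term and each array left out. Plots used matplotlib 3.10.9 (Python 3.11.15).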

Additional observations from a re-analysis of the deposited data

Results flagged for a closer look

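Among the 50 named genes, 100 groups of 4 arrays were tested for an array far from the others, and 6 stood apart, where chance gives about 1 in 20. None of the 8 genes of the set was among them. Efcab2, Ica1 and Galnt7 each had a low value on control replicate 6, at 6.40, 5.42 and 6.65, against 6.74, 5.86 and 6.80 on the nearest control array. These 3 were named for following the mean of the set, which is itself low on that array, so they add nothing independent. Fbp1 had a high value on cisplatin replicate 5, at 4.92 against 4.74 on the nearest cisplatin array. The glycine transporter gene Slc6a9 had a low value on control replicate 4, at 4.50 against 4.73. The histidyl-tRNA synthetase gene Hars was at 9.59 on cisplatin replicate 3, which differed from the nearest array by only 0.01 in a very narrow group.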

How the results depend on the processing

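The calls of Aldh18a1, Pck2 and Stc2 and their direction were kept under all 17 alternatives, and Stc2 ranged from -0.85 after centring to -0.37 with its probe sets averaged. The alternatives refit the same 8 arrays, by which the genes were chosen, so the kept calls are a description and no support. Psph, Phgdh and Asns were not called under any alternative run. Centring each array on its median moved the count of set genes called lower to 5 and their median to -0.25, and the further route genes to 7 higher and 6 lower with a median of -0.056. It moved all genes to 1087 higher and 3925 lower with a median of -0.12, against 1989, 1314 and 0.01, because it lowers every change by 0.13. It also gave 9 synthetases lower, against 3, and the intensity trend gave 5, with 9.16% of all genes then called lower. Leaving out each array in turn gave 3 to 4 set genes called lower and 0 called higher, with medians from -0.19 to -0.09. It gave 9 to 13 further route genes higher and 2 lower, with medians from 0.06 to 0.10, and 1580 to 1871 genes higher and 1037 to 1246 lower over all. Deviations of arrays with the same replicate number correlated at 0.20, 0.18, 0.20 and 0.06 over genes for replicates 3 to 6. Of the 8 arrays, 7 correlated best with their own number. Arrays of the same number were thus alike to some degree, least for replicate 6, and the labels do not say what a number shares. The main fit took no pairs, and a fit with the replicate number as a block was run beside it. With the replicate block, 3 set genes were lower, and 13 further genes were higher and 2 lower, with 3 higher in each of the asparagine and phosphoenolpyruvate lists, against 4 and 2. Of the named genes, Gpt (limma adjusted p = 0.0765), Hars (0.0614), Mars1 (0.0746) and Atf5 (0.0549) were then not called, and H2aw was (0.0216). Stc2, Srr, Pck1, Stc1 and Mthfd2l lie near background, as do Adssl1, Fbp1 and Aldh1l1 in the controls, which limits what can be seen in them.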
